A study of Mus musculus with 2 samples.

Results

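Narrow but strongly enriched H3K4me3 domains at the starts of protein-coding genes were described in mouse bone marrow-derived macrophages. Peaks of the authors' replicated list within 1 kb of each other were joined, and a joined domain was kept if it measured at most 2000 bp, held a peak with a deposited fold of at least 30, and overlapped the 1 kb on either side of a GENCODE M21 protein-coding transcript start. The rule found 1187 domains among 12993 joined domains, of which 10336 touched a coding start and are called coding promoter domains here. Members thus made up 11.5% of the coding promoter domains, a share that the rule itself sets. Members were thus chosen by width and fold, and both are given as a description only. The rest were split by the same limits into 2104 wide strong domains (over 2000 bp, fold of at least 30), 4375 narrow weak domains and 2670 wide weak domains.

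H3K4me3 is the trimethylation of lysine 4 on histone H3, a mark laid down mainly by SET1 and MLL methyltransferase complexes around the starts of active or poised genes. Many mammalian promoters lie in CpG islands, stretches where the CG dinucleotide has escaped the depletion seen in the rest of the genome, and unmethylated CG is bound by CXXC-domain proteins of these complexes. Some promoters serve a pair of genes that leave in opposite directions, and the mark then lies over both starts. Broad H3K4me3 domains are known for marking cell identity genes.

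The series holds 1 group, macrophages grown from the marrow of C57BL/6J mice without stimulation, in 2 biological replicates that each began with 10 ng of DNA. No allele, treatment or time course is given, the sex of the animals was not recorded, and the age is unknown or not collected. Both replicates come from separate cell preparations listed under 1 donor entry, and nothing in the labels says that they came from separate animals. Differences between them therefore measure a spread that may be technical. All 12 macrophage marker genes looked at had a coding promoter domain, 6 of them wide strong and 6 wide weak, whereas 0 of 6 fibroblast, 0 of 7 neutrophil and 0 of 6 T and NK cell markers had one. Among the other lists, 1 of 6 B cell markers (Cd79b), 1 of 4 endothelial (Pecam1) and 0 of 4 mast cell and basophil markers had a domain. None of these markers lay at a narrow strong domain.

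To show what lies at such starts, the 120 bases before the lead start are printed for the 3 members of highest fold whose upstream 700 bases overlap no annotated transcript. The lead start is the coding transcript start nearest to the middle of the domain's highest peak. Sequences are from GRCm38 (mm10), 5′ to 3′ on the strand of the gene, with each CG dinucleotide in capitals. The Uqcr11 stretch is chr10:80406831-80406950, the Vps11 stretch chr9:44361671-44361790 and the Sec13 stretch chr6:113740744-113740863, all on the minus strand.
Uqcr11: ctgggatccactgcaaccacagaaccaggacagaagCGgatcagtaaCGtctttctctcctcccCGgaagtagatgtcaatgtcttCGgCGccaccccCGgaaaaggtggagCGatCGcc
Vps11: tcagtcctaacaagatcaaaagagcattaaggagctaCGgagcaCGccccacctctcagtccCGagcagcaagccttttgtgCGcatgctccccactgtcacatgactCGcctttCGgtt
Sec13: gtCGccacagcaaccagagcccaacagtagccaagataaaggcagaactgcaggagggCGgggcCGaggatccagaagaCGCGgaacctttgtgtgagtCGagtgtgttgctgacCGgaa

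These 3 stretches held 8, 6 and 7 CG dinucleotides. The Uqcr11 stretch holds CCGGAAGT, the core of the ETS factor sequence, once. The Vps11 stretch holds GCGCATGC, a core of the NRF1 sequence, once. The Sec13 stretch holds GGGCGG, the GC box, once. Further upstream of the same starts, from 700 to 601 bases before them, CG was rarer, at 0 in Uqcr11, 2 in Vps11 and 1 in Sec13 per 100 bases. These stretches are chr10:80407431-80407530, chr9:44362271-44362370 and chr6:113741344-113741443.
Uqcr11 upstream: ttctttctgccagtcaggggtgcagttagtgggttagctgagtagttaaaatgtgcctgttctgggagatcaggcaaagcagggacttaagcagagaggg
Vps11 upstream: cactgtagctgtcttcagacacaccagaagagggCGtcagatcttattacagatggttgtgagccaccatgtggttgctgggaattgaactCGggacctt
Sec13 upstream: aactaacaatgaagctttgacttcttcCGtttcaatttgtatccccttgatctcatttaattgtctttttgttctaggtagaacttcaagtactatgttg

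For contrast, the wide strong domains of highest fold under the same restriction lay at M6pr (chr6:122308600-122308719, plus strand), Bicra (chr7:16047922-16048041, minus strand) and Gtpbp4 (chr13:8996084-8996203, minus strand). The 120 bases before their starts held 5, 15 and 12 CG dinucleotides, and the bases from 700 to 601 before them held 2 each, so these few promoters alone do not separate the classes.
M6pr: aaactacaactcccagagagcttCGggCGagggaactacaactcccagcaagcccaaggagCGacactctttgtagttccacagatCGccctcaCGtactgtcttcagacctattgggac
Bicra: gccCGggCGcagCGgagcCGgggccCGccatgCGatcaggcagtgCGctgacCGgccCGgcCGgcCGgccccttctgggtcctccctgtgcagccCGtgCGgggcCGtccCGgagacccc
Gtpbp4: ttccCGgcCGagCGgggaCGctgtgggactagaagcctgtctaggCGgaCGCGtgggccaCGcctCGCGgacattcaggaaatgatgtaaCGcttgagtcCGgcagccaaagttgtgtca

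Members were 831 to 2000 bp wide, with a median of 1652 bp, and had folds of 30.1 to 49.96, with a median of 35.01. Wide strong domains had a median width of 2726 bp and the same median fold of 35.01. Of the members, 1069 (90.1%) consisted of 1 peak and 118 of 2 peaks, against 1074 of 2104 wide strong domains with 1 peak. The share with 1 peak was 82.7% in narrow weak domains and 66.0% in all coding promoter domains. Joining peaks adds width, so the width limit bears on this count. The folds take 316 different values among the 1187 members, so ties are common. Just inside the fold limit lay Vta1, Cct2, Tmem106c, Thoc6 and Zfp101, all at 30.1, and just outside it lay Slc16a10, Chac2, Taco1, Tmem18 and Fntb, all at 29.99. Just inside the width limit lay Myl12a at 2000 bp and Cep128 and Mpst at 1997 bp. Just outside it lay Phb and Polr2d at 2001 bp and Mtmr9 at 2002 bp. Both limits thus cut through a continuous spread, without a gap on either side.

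**Figure D1:**
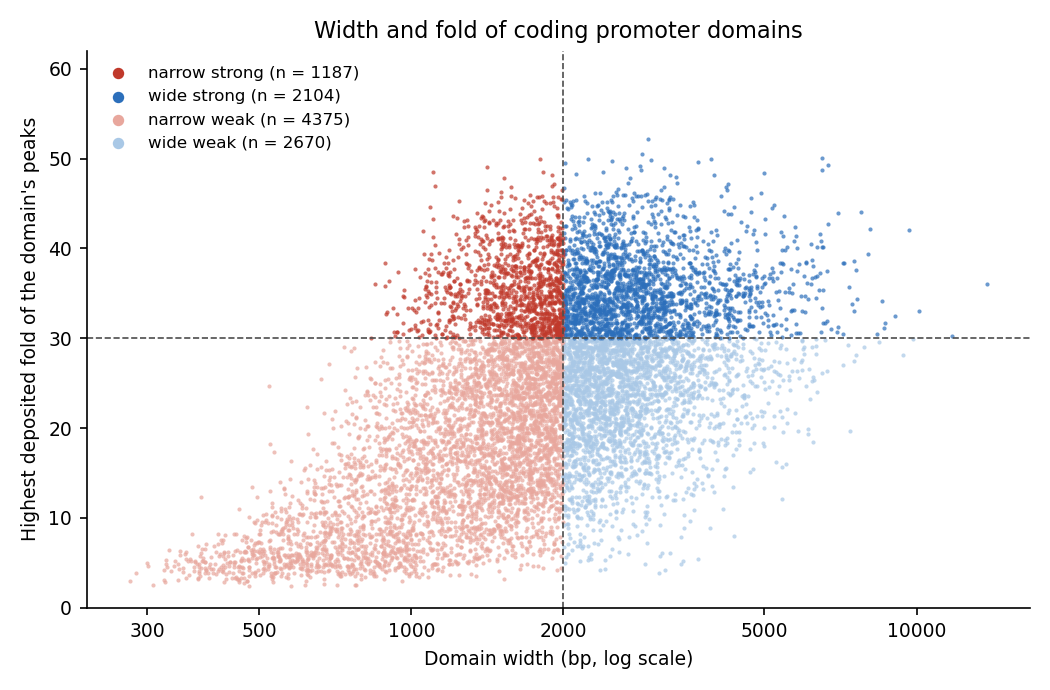
Width of each of the 10336 coding promoter domains in bp (x axis, log scale) against the highest deposited fold of its peaks (y axis), coloured by class, with dashed lines at 2000 bp and fold 30. The 1187 narrow strong domains fill the upper left corner of a continuous cloud, and none is narrower than 831 bp.

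The 10 members of highest fold are given one by one. Sar1b, the small GTPase that starts COPII coat assembly, had the highest fold at 49.96 over 1799 bp. Its fold was 65.6 in replicate 1 and 32.5 in replicate 2, and its widths were 1921 and 1613 bp. Os9, a lectin of endoplasmic reticulum-associated degradation, had 49.04 in the joint list, 66.1 in replicate 1 and 30.3 in replicate 2, over 1409 bp. Slc38a9, the lysosomal amino acid sensor upstream of mTORC1, had 48.5, 66.9 and 28.8 over 1823 bp in the same order. Med27, a Mediator subunit, had 48.5, 66.1 and 29.5 over only 1102 bp. Sec24c, a cargo-binding COPII subunit, had 48.1 over 1902 bp, and Becn1, the beclin of autophagy, 47.8 over 1527 bp.

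Next came Uqcr11, a respiratory complex III subunit (47.1 over 1919 bp), Cwc25, a splicing factor (47.0 over 1901 bp), Hbs1l, a ribosome rescue factor (47.0 over 1113 bp), and Vps11, a subunit of the HOPS and CORVET tethering complexes (46.9 over 1573 bp). These 10 were chosen by fold in a list made from both replicates, and in each replicate's own list their folds ranked at percentile 99.2 or higher. The highest fold of a wide strong domain was 52.2, at M6pr, the mannose 6-phosphate receptor, over 2946 bp. The top of the fold range was therefore reached by domains on both sides of the width limit. The narrowest members were Tchp at 831 bp, Ago1, an Argonaute protein, at 848 bp, Entpd7 and Erich1 at 889 bp, and Pars2, the mitochondrial prolyl-tRNA synthetase, at 893 bp. Their widths were 887, 1383, 1542, 899 and 956 bp in replicate 1, and 721, 794, 821, 855 and 798 bp in replicate 2. Ago1 and Entpd7 were the widest of the 5 in replicate 1 and not in replicate 2.

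All 1187 members overlapped a domain in the own list of each replicate. Their median width was 1738 bp in replicate 1 and 1398 bp in replicate 2, and 1172 members (98.7%) were wider in replicate 1. The median fold was 49.7 in replicate 1 (35.1 to 66.9) and 20.2 in replicate 2 (14.2 to 32.5). Each list has its own fold scale, so the levels cannot be set against each other. In ranks, the members' median stood at percentile 88.6 of replicate 1's domains and at percentile 85.8 of replicate 2's. The joint list was made from the same replicates, so high ranks follow largely from its fold limit. Across the 1187 members, Spearman's rank correlation between the replicates was 0.79 for fold and 0.66 for width. Over all 3291 domains with a fold of at least 30 it was 0.77 for fold and 0.89 for width, and the rule limits the range of widths among members. These correlations run over domains of the same 2 libraries and are descriptions.

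All 1187 members measured at most 2000 bp in replicate 2's own list, but not in replicate 1's. In both replicates' own lists 995 members (83.8%, 95% Wilson interval 81.6 to 85.8) measured at most 2000 bp, against 15 of 2104 wide strong domains (0.713%). Both lists come from the libraries behind the joint list, where 2000 bp split the classes, so this contrast follows largely from the rule. The other 192 members exceeded 2000 bp in replicate 1, with a median of 2086 bp there and 1639 bp in replicate 2. These 192 had a median CpG ratio of 0.621, against 0.547 for the 995. Wilson intervals here and below cover counting error only and treat domains as independent.

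**Figure D2:**
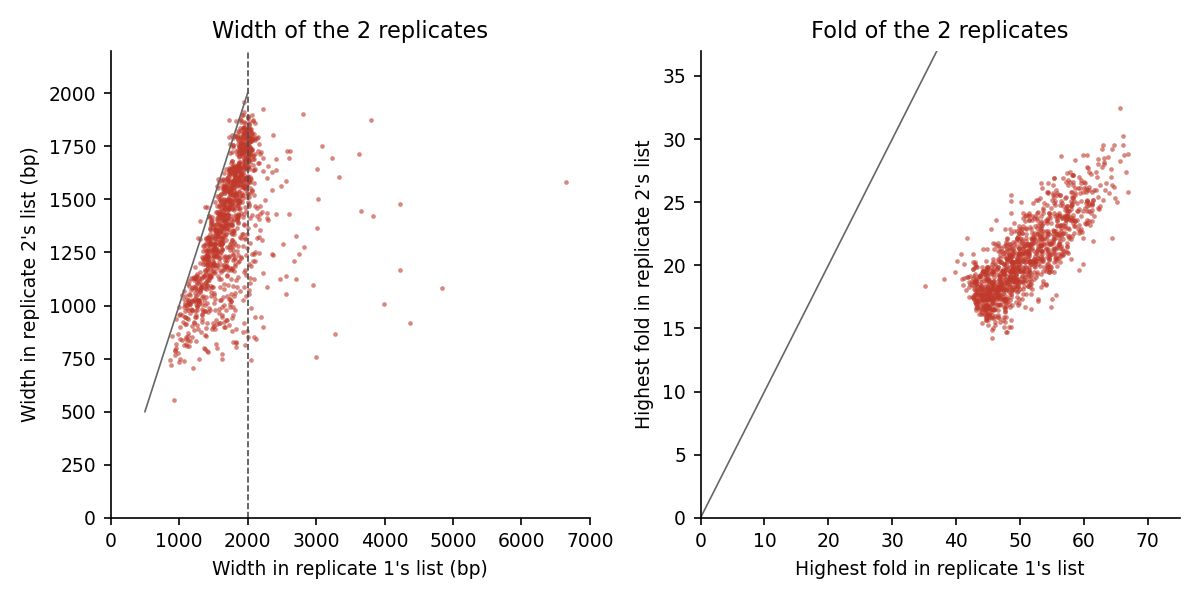
Each point is 1 of the 1187 narrow strong domains. Left, width in replicate 2's own list against width in replicate 1's (bp), and right, highest fold in replicate 2's list against replicate 1's, with solid lines of equality and a dashed line at 2000 bp. Folds order the domains alike in the 2 lists on different scales, and 192 domains lie right of the dashed line.

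The domains sat asymmetrically on their starts, and their narrowness lay on both sides. Members reached a median of 522 bp upstream and 1090 bp downstream of the lead start, against 1115 bp upstream and 1568.5 bp downstream for wide strong domains. The authors' point source, the position of a peak's maximum, lay a median of 299 bp downstream of the lead start in members and 339.5 bp downstream in wide strong domains. It was downstream in 1095 of 1187 members (92.2%) and in 1666 of 2104 wide strong domains (79.2%). The share was 78.1% in narrow weak domains and 79.4% in all coding promoter domains. The lead start itself lay inside 1070 members (90.1%), while 117 members touched the window of a start without covering it. Wide strong domains held the lead start in 98.3% of cases, narrow weak domains in 74.6% and all coding promoter domains in 87.0%. The first exon of the lead transcript had a median of 147 bp in members and 188 bp in wide strong domains. Beyond it ended 97.9% of members and 98.0% of wide strong domains, against 88% of narrow weak and 93.3% of all coding promoter domains.

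Lead transcripts of members spanned a median of 13536 bp of genome and 1710 bp of exons, against 18528 bp and 2174 bp in wide strong domains. Among all domains of at most 2000 bp, the median span was 20759 bp at folds under 10 and 11452 bp at folds of 40 or more. Across autosomes, the share of coding promoter domains that were members ran from 8.84% on chromosome 1 to 14.7% on chromosome 18. The X chromosome lay below this range, with 5 of 328 domains (1.52%). Those 5 lay at Uba1, which starts ubiquitin conjugation, Slc25a5, a mitochondrial ADP/ATP carrier, Mmgt1, Pin4 and Gprasp1, and their folds ran from 30.1 to 32.5. X-linked coding promoter domains had a median fold of 17.8, against 25.3 on the autosomes, and 9 of 328 reached 30. Sex was not recorded in the labels.

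CpG content was lower in members than in wide strong domains and close to that of narrow weak domains. The CpG observed/expected ratio, which is the number of CG dinucleotides relative to that given by the C and G content, had a median of 0.558 over 1 kb on either side of the lead start (quartiles 0.471 and 0.635). It was 0.672 in wide strong domains (0.568 and 0.765), 0.573 in narrow weak domains and 0.702 in wide weak domains. The 9149 other coding promoter domains together had 0.635. A ratio of at least 0.75 was found at 71 members (5.98%, 4.77 to 7.48) and at 596 wide strong domains (28.3%, 26.4 to 30.3), against 14.8% of narrow weak domains and 22.9% of all coding promoter domains. A ratio below 0.4 was found at 10.1% of members (8.52 to 11.96) and 7.32% of wide strong domains (6.28 to 8.51), against 17.9% of narrow weak domains and 13.4% of all coding promoter domains. The quartiles of members thus lay closer together than those of wide strong domains, and fewer members had a high ratio.

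Closer to the start the classes came together. Within 250 bp of the lead start the median ratio was 0.775 in members and 0.819 in wide strong domains. In 200 bp bins, the ratio summed over domains at 100 bp upstream was 0.796 in members and 0.834 in wide strong domains. At 500 bp upstream it was 0.434 in members and 0.637 in wide strong domains, and at 700 bp upstream 0.348 in members and 0.537 in wide strong domains. Downstream, at 700 bp, it was 0.384 in members and 0.513 in wide strong domains. Narrow weak domains had 0.749 at 100 bp, 0.454 at 500 bp and 0.375 at 700 bp upstream, and 0.466 at 700 bp downstream, so the upstream decline was much alike in both narrow classes. An island-like criterion was set as windows of 200 bp with at least 50% G and C and a ratio of at least 0.6. The joined stretch of such windows nearest to the lead start, at most 500 bp away, was measured. It had a median length of 700 bp in members, 950 bp in wide strong domains and 700 bp in narrow weak domains. None was found at 3.62% of members, 4.66% of wide strong domains, 9.97% of narrow weak domains and 8.27% of all coding promoter domains. Measured over the domain itself, a shorter stretch in members, the median ratio was 0.582 in members and 0.604 in wide strong domains. The classes thus differed less within their own bounds than over a fixed window.

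**Figure D3:**
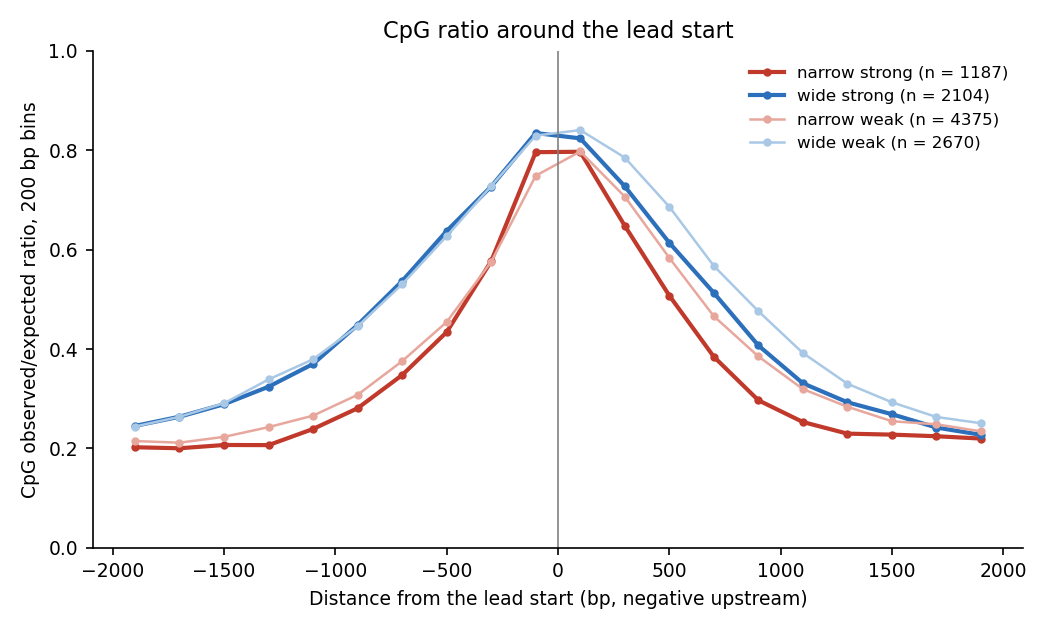
CpG observed/expected ratio in 200 bp bins (y axis) by distance from the lead start in bp (x axis, negative upstream), summed over the domains of each class. Narrow strong domains reach 0.796 at 100 bp upstream, close to the 0.834 of wide strong domains, and drop to 0.348 at 700 bp upstream, against 0.537 in wide strong and 0.375 in narrow weak domains.

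The ratio went with width more than with fold. Over the 3291 domains with a fold of at least 30, Spearman's rank correlation of width with the CpG ratio was 0.36, and of fold with the CpG ratio -0.11. The fold limit narrows the range of folds there. Over all 10336 coding promoter domains the values were 0.298 for width and 0.098 for fold, so the sign for fold was not stable. Among the members alone the rank correlation with width was 0.23. Strong domains of 1001 to 1500 bp had a median ratio of 0.526, those of 1501 to 2000 bp 0.573, those of 2001 to 2500 bp 0.639, those of 2501 to 3000 bp 0.687, those of 3001 to 4000 bp 0.709 and wider ones 0.675. Domains with a fold under 30 had 0.539, 0.609, 0.686, 0.724, 0.717 and 0.702 in the same width classes. These are correlations over regions of the same libraries, without independent replicates.

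The 5 members of lowest CpG ratio included genes known from blood cells. Vwa5a had a ratio of 0.130 and a fold of 40.9. Rac2, the haematopoietic small GTPase of the phagocyte oxidase, had 0.163 and 40.8, with folds of 59.8 in replicate 1 and 20.1 in replicate 2. Mast3, a microtubule-associated kinase, had 0.172, Wdfy4, known for cross-presentation in dendritic cells, 0.187, and Csf2rb, the common beta chain of the GM-CSF, IL-3 and IL-5 receptors, 0.187. The Mast3 lead start is that of a short transcript spanning 1749 bp, and it lies 14276 bp from the 5′ end of the gene. Csf2rb has a close copy, Csf2rb2, beside it, so reads could be placed at either. In replicate 1, Vwa5a, Rac2 and Mast3 exceeded the width limit, at 2023, 2033 and 2215 bp. Wdfy4 and Csf2rb measured 1899 and 1876 bp there. None of these 5 had an island-like stretch, which 43 of 1187 members lacked. The 120 bases before the starts of Rac2 (chr15:78572784-78572903) and of Dhx58 (chr11:100704272-100704391), both on the minus strand, show such promoters. Dhx58 encodes LGP2, a RIG-I-like receptor, and had a ratio of 0.215.
Rac2: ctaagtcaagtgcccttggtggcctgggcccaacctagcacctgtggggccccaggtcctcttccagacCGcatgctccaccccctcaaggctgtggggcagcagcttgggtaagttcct
Dhx58: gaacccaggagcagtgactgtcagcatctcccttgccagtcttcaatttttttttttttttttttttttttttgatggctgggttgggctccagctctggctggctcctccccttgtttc

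The Rac2 stretch holds 1 CG at 63.3% G and C, and the Dhx58 stretch 0. At the high end, Larp1b had a ratio of 1.00, Rest, a repressor of neuronal genes, 0.990, Cdv3 0.981, Wac 0.978 and Sdf4 0.966. For all of these but Cdv3 the narrowness did not hold in both replicates. Larp1b, Rest, Wac and Sdf4 measured 2955, 2994, 3272 and 3028 bp in replicate 1 and 1096, 758, 864 and 1503 bp in replicate 2. Cdv3 measured 1253 bp in replicate 1 and 1095 bp in replicate 2. The 33 members over 2500 bp in replicate 1 had a median ratio of 0.741.

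Another gene's start near the lead start was less frequent in narrow strong than in wide strong domains, at a share near that of all coding promoter domains. Another protein-coding gene started within 1 kb of the lead start at 109 of 1187 members, 9.18% (7.67 to 11.0), against 549 of 2104 wide strong domains, 26.1% (24.3 to 28.0). The share over all coding promoter domains was 11.1%, over narrow weak domains 4.78% and over wide weak domains 10.6%. Pairs that start head to head, each leaving away from the other, accounted for 80 members (6.74%) and 453 wide strong domains (21.5%), against 8.30% of all coding promoter domains. Counting genes of any kind, 21.2% of members and 42.8% of wide strong domains had another start within 1 kb, against 25.8% of all coding promoter domains. The members' share was thus below that of wide strong domains by each of these 3 counts, and nearer to that of all domains.

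Width separated the shares within the strong domains. None of the 22 members of at most 1000 bp had another coding start (Wilson upper bound 14.9%). The share was 5.52% at 1001 to 1500 bp, 11.1% at 1501 to 2000 bp, 26.9% at 2001 to 2500 bp, 29.6% at 2501 to 3000 bp, 27.3% at 3001 to 4000 bp and 15.9% above that, so it was lower again in the widest domains. Among domains with folds under 30 it was 3.57%, 3.95%, 6.47%, 10.9%, 11.8%, 10.3% and 6.17% in the same width classes. Within domains of at most 2000 bp the share was 3.25% at folds under 10, 8.87% at folds of 30 to under 35 and 10.7% at 40 or more. Sharing was counted in a fixed window of 1 kb on either side of the lead start, so domain width does not enter the count. A domain may still extend over both starts of a pair, and the part of this in the trend was not tested. The CpG difference between classes was present with and without a shared start. Among domains without another coding start the median ratio was 0.556 in the 1078 members and 0.660 in the 1555 wide strong domains, and among those with one it was 0.587 in members and 0.690 in wide strong domains.

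**Figure D4:**
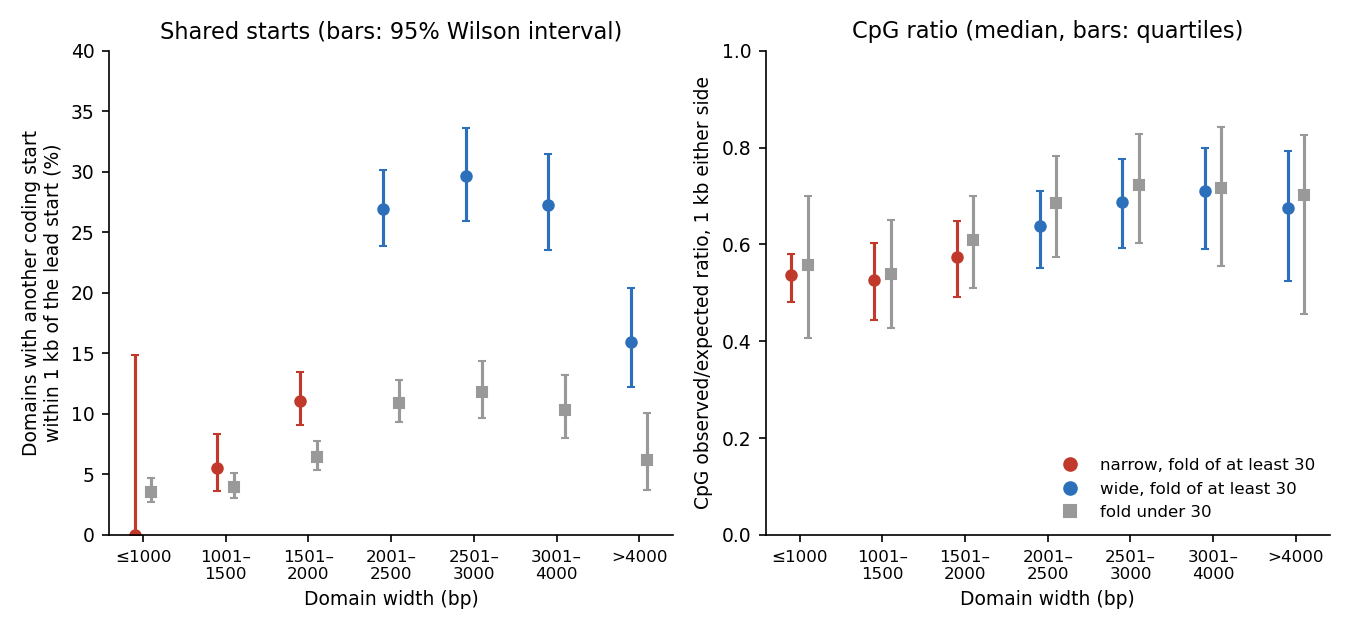
Share of domains with another protein-coding start within 1 kb of the lead start (left, %, with 95% Wilson intervals) and CpG observed/expected ratio over 1 kb on either side of the lead start (right, median with quartiles), by width class in bp. Strong domains of 1501 to 2000 bp share a start in 11.1% of cases, against 26.9% at 2001 to 2500 bp, and the median CpG ratio is 0.573 against 0.639.

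The starts of head-to-head pairs lie within 1 kb of each other by definition. The gap between them had a median of 154 bp (25 to 937 bp) over the members' 80 pairs and 181 bp over the 453 wide strong pairs. It was 146 bp in narrow weak and 202.5 bp in wide weak domains, so a short gap was not particular to members. The shortest gaps were 25 bp between Hars and Hars2, the cytosolic and mitochondrial histidyl-tRNA synthetases, 30 bp between Fpgt and Lrriq3, 42 bp between Cog5, a Golgi tether subunit, and Dus4l, a tRNA dihydrouridine synthase, 44 bp between Serac1 and Gtf2h5, a TFIIH subunit, and 51 bp between Ndufa8, a complex I subunit, and Morn5. The whole space between such starts is printed for 4 pairs with no other transcript in it, on the strand of the gene named first. They are chr12:31654827-31654868 (plus strand), chr17:6079742-6079785, chr2:36049407-36049457 and chr10:43901746-43901806 (minus strand), and they held 4, 2, 4 and 8 CG dinucleotides.
Cog5 and Dus4l: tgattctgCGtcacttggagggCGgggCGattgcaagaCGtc
Serac1 and Gtf2h5: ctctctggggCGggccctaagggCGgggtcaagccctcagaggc
Ndufa8 and Morn5: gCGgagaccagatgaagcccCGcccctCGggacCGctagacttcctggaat
Qrsl1 and Rtn4ip1: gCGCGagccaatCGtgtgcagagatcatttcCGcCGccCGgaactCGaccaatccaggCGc

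The domain over Cog5 and Dus4l was 1932 bp wide with a fold of 32.4 (46.7 in replicate 1 and 18.01 in replicate 2). That over Serac1 and Gtf2h5 was 1992 bp wide with a fold of 35.8 (51.9 and 21.9). That over Hars and Hars2 was 1942 bp wide with a fold of 37.3 (53.1 and 22.3). These domains lie close to the width limit in the joint list, and the Serac1 and Hars domains exceeded it in replicate 1, at 2068 and 2050 bp.

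Short sequences were counted in the 250 bases before and first 50 bases of the lead transcript, on both strands. The ETS core CCGGAAGT occurred at 174 members, 14.7% (12.8 to 16.8), against 10.8% of wide strong domains (9.58 to 12.2), 6.97% of narrow weak domains, and 4.70% of the 5′ ends of all coding genes. ACTACA, part of the sequence bound by ZNF143, occurred at 190 members, 16.01% (14.03 to 18.2), against 9.84% of wide strong domains (8.64 to 11.2) and 10.9% of all 5′ ends. AAGATGGCG, a YY1 core, occurred at 6.40% of members, 4.66% of wide strong domains and 1.70% of all 5′ ends. TGACGTCA, the CRE, occurred at 4.72% of members, 2.71% of wide strong domains and 2.43% of all 5′ ends. GCGCATGC, the NRF1 core, occurred at 6.07% of members, 5.04% of wide strong domains and 3.71% of all 5′ ends. Over all coding promoter domains the shares were 8.41% for the ETS core, 10.4% for ACTACA, 3.78% for the YY1 core and 3.13% for the CRE. For the NRF1 core it was 5.15%, within the members' interval of 4.84 to 7.57. The GC box was the one counted less often than in wide strong domains beyond both intervals, at 61.4% of members (58.6 to 64.1) and 67.3% of wide strong domains (65.2 to 69.2). It occurred at 66.1% of all coding promoter domains and 43.01% of all 5′ ends.

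CCAAT occurred at 39.2% of members, 37.3% of wide strong domains and 39.0% of all 5′ ends. TATAAA occurred at 4.04% of members, 5.18% of wide strong domains and 12.6% of all 5′ ends. GAGGAAGT, the form bound by the myeloid factor PU.1, occurred at 2.95% of members, 3.18% of wide strong domains and 3.23% of all 5′ ends. TGANTCA (AP-1) occurred at 4.55% of members, 3.33% of wide strong domains and 6.91% of all 5′ ends, and CACGTG (E-box) at 11.2% of members, 10.2% of wide strong domains and 7.75% of all 5′ ends. TTTCGCGC (E2F) occurred at 0.674% of members, 0.570% of wide strong domains and 0.351% of all 5′ ends. Members with ACTACA had a median width of 1550 bp and a median CpG ratio of 0.511, and members without it 1673 bp and 0.566. Members with the YY1 core had a median fold of 37.4, and those without it 34.9. A match to letters is a description and not a binding site, and the motifs were not corrected for base composition.

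Each protein-coding gene with a domain was assigned the class of its strongest domain, which placed 1296 of 11090 genes (11.7%) at a narrow strong domain. Of 34 function lists, 23 had a larger share than this and 11 a smaller one. The Wilson interval lay wholly above 11.7% for 13 lists and wholly below it for 1. The lists were chosen with earlier results of these data known, and genes at the same domain are counted singly. This tally is therefore a description only. In all, 443 of the 1296 genes were in a list. List shares are described against the share over all genes, without a test. The lists were also counted in each replicate's own list with a fold limit passed by the same share of domains, where 16.9% of all genes in replicate 2 and 10.05% in replicate 1 lay at a narrow strong domain, and list values that differ there by more than 1.5 times are given below.

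The list with the largest share was Mediator and Integrator. Of 45 Mediator and Integrator genes with a domain, which bridge transcription factors to RNA polymerase II or process its short transcripts, 18 (40%, 27.03 to 54.5) lay at a narrow strong domain, among them Med27, Med28 (fold 44.7 over 1723 bp), Ints5 (39.4 over 1421 bp) and Med25 (38.2 over 1721 bp). Of 82 spliceosome and splicing genes 25 did (30.5%, 21.6 to 41.1), including Snrnp200, the helicase that unwinds the U4/U6 duplex (45.7), Sf3b6 (45.5) and Prpf8 (39.2), the scaffold of the catalytic centre. RNA polymerases and general transcription factors had 19 of 79 (24.1%), with Polr3a, the largest RNA polymerase III subunit, at 42.5 and Taf7, a TFIID subunit, at 42.3. mRNA processing and decay had 13 of 63 (20.6%) and tRNA modification 17 of 58 (29.3%), where Elp3, the catalytic Elongator subunit, had 35.5.

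Oxidative phosphorylation, the proteasome and the mitochondrial ribosome had the next largest shares, above that of splicing. Oxidative phosphorylation subunits and assembly factors had 31 of 94 (33.0%, 24.3 to 42.99), among them Uqcr11, Ndufa9 of complex I (45.1 over 1908 bp), Sdhc and Sdhb of complex II (44.5 and 42.8) and Cox6b1 of complex IV (43.03). The mitochondrial ribosome had 25 of 78 (32.1%), led by Mrps14 (45.2 over 1244 bp), and mitochondrial import and assembly 15 of 52 (28.8%), led by Timm50 (45.5). The proteasome had 12 of 37 (32.4%, 19.6 to 48.5), including the ATPases Psmc4 (44.6 over 1090 bp) and Psmc6 (41.0) and the catalytic subunits Psmb5, Psmb6, Psmb7 and Psmb10. Another 19 of the 37 proteasome genes (51.4%) lay at wide strong domains, against 24.5% of all genes with a domain. Peroxisome genes had 7 of 27 (25.9%), GPI anchor and glycosylation genes 13 of 68 (19.1%), autophagy genes 6 of 33 (18.2%) and vesicle traffic genes 34 of 196 (17.3%). In replicate 2's list at the matched limit the proteasome stood at 56.8%, above Mediator and Integrator at 46.7%, and autophagy at 33.3%, and in replicate 1's list peroxisome genes stood at 14.3%.

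Protein synthesis was split between classes. The cytoplasmic ribosome, whose genes are among the most transcribed in any cell, had 12 of 82 genes (14.6%, 8.57 to 23.9) at narrow strong domains and 44 (53.7%) at wide strong ones. Rpl26 had the highest fold of these, 44.8 over 1435 bp. Ribosomal protein genes have many processed copies in the genome, which can share reads from their exons. Ribosome biogenesis had 15 of 67 (22.4%), tRNA synthetases 7 of 37 (18.9%), translation factors and their regulators 12 of 69 (17.4%), and chaperones and co-chaperones 9 of 62 (14.5%). In replicate 2's list at the matched limit the cytoplasmic ribosome stood at 26.8% and translation factors at 27.9%, and in replicate 1's list tRNA synthetases stood at 10.8%. Among genes at any strong domain, the narrow ones were 32.3% over all genes. They were 64.3% of Mediator and Integrator genes, 53.2% of mitochondrial ribosome genes, 49.2% of oxidative phosphorylation genes and 46.3% of splicing genes. Nearer to all genes were the proteasome (38.7%), ribosome biogenesis (35.7%), autophagy (35.3%) and vesicle traffic (34.7%). Below all genes were translation factors (30.8%), chaperones (27.3%) and the cytoplasmic ribosome (21.4%). The proteasome list had 83.8% of its genes at a strong domain of either width, against 36.2% of all genes. Zfp zinc finger genes, mostly KRAB-type repressors in gene clusters, had 57 of 335 (17.02%, 13.4 to 21.4), and 53.8% of their strong domains were narrow. Reads from near-identical members of this family cannot always be placed, so these counts are uncertain.

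Lists near the share of all genes were lysosome (7 of 57, 12.3%), cilium and intraflagellar transport (6 of 49, 12.2%), nuclear pore and transport (6 of 50, 12%), replication and mitosis (20 of 168, 11.9%), ubiquitin pathway enzymes (26 of 235, 11.1%), mitochondrial carriers (4 of 37, 10.8%), DNA repair (12 of 114, 10.5%) and cholesterol and lipid metabolism (4 of 39, 10.3%). In replicate 2's list at the matched limit, nuclear pore and transport stood at 26%, replication and mitosis at 24.2%, cholesterol and lipid metabolism at 23.7% and mitochondrial carriers at 16.7%. Cilium genes and cholesterol genes changed side of the share of all genes there, as did replication and mitosis in replicate 1's list. Several further lists had few or no members, although most of their intervals include 11.7%. Of 28 macrophage lineage and receptor genes with a domain, 0 lay at a narrow strong domain (Wilson upper bound 12.1%), 13 at wide strong and 12 at wide weak domains. Glycolysis and hypoxia genes had 0 of 25 (upper bound 13.3%) and inflammatory response genes 0 of 16 (upper bound 19.4%). Histone modification enzymes had 3 of 115 (2.61%, 0.891 to 7.39), Prmt2, Chd8 and Dpy30, the last a core subunit of the H3K4 methyltransferase complexes, with a fold of 35.5 over 1921 bp. This was the only list of the 34 whose interval lay wholly below 11.7%. Its share was 10.5% (12 of 114 genes) in replicate 2's list at the matched limit and 4.17% (5 of 120) in replicate 1's. At that limit replicate 2's list also held 2 of 28 macrophage genes (7.14%) and 3 of 25 glycolysis and hypoxia genes (12%).

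Immediate early and stress response genes had 1 of 34, Btg2, an antiproliferative early gene, with a fold of 37.1 over 1800 bp (49.1 in replicate 1 and 23.4 in replicate 2). Interferon-stimulated genes had 3 of 40 (7.5%). These were Trim21, the cytosolic antibody receptor, Dhx58 and Ifi35, with folds of 36.8, 36.02 and 31.5 and CpG ratios of 0.215, 0.215 and 0.255. All 3 had ratios below the lower quartile of members. The median over all 40 interferon-stimulated genes with a domain was 0.242, so a low ratio was not particular to these 3. NF-kappaB, IRF and STAT signalling had 4 of 41 (9.76%), namely the kinases Tyk2 (37.3), Ikbkb (37.01) and Chuk (31.1) and the ubiquitin ligase Traf6 (31.1). Their CpG ratios were 0.439, 0.556, 0.754 and 0.686, and their widths 1640, 1440, 1914 and 1300 bp. In replicate 2's list at the matched limit this list stood at 17.07%, above the 16.9% of all genes, and interferon-stimulated genes at 15.4%.

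**Figure D5:**
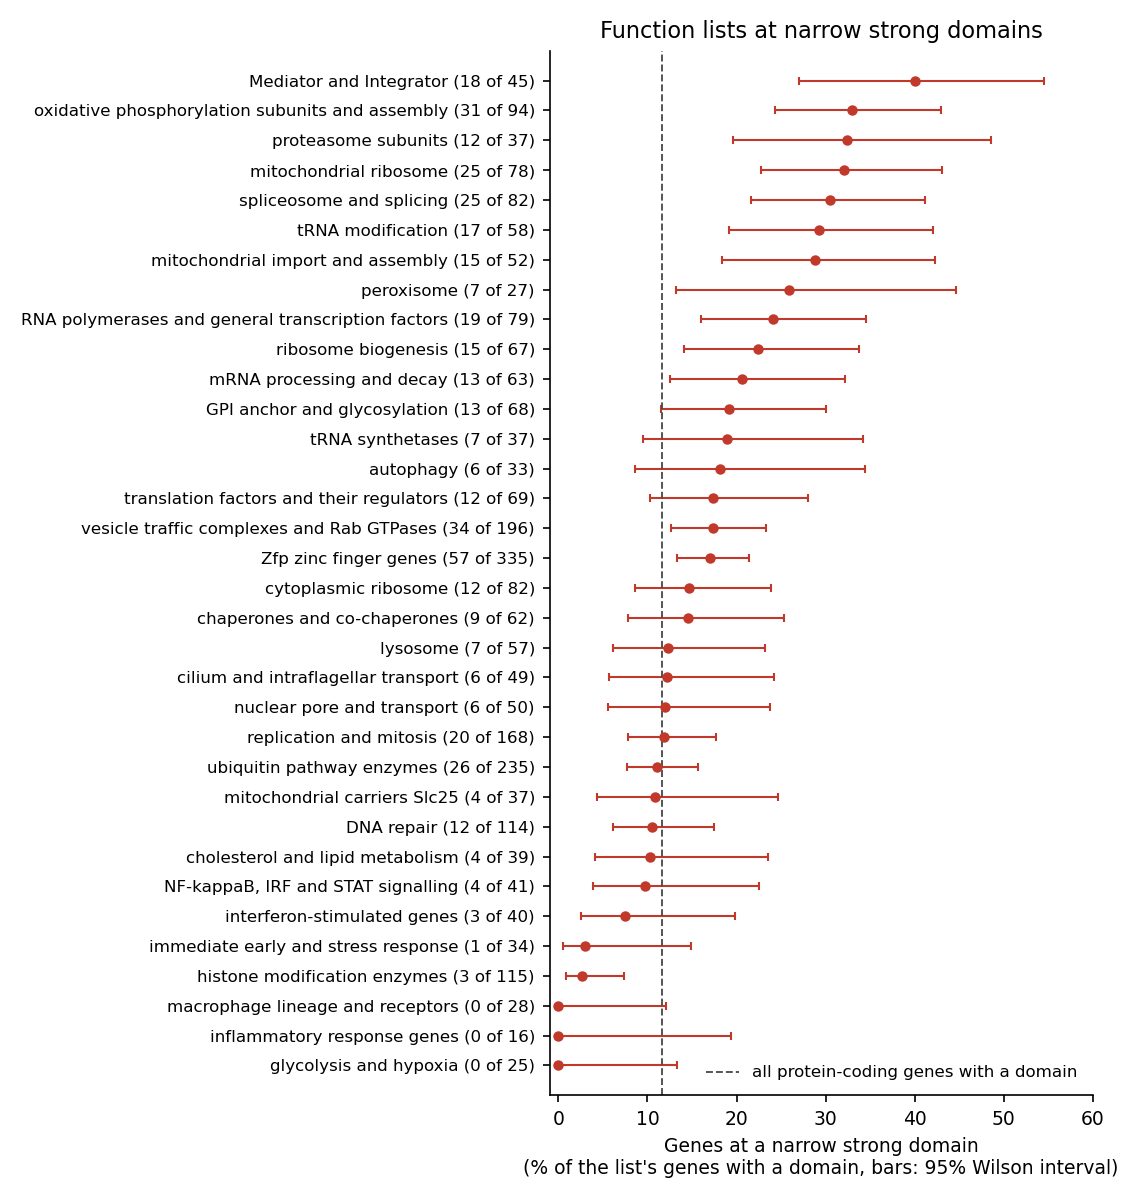
Percent of the genes with a domain that lay at a narrow strong domain (x axis) for each of 34 function lists, with counts in brackets and 95% Wilson intervals as bars. The dashed line is the share over all 11090 protein-coding genes with a domain, 11.7%; Mediator and Integrator stand highest at 40%, and 3 lists stand at 0.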

How the data were processed

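H3K4me3 ChIP-seq peaks of unstimulated macrophages were analysed from 4 lists: 1 per replicate, 1 pooled, and 1 replicated list, per the provenance texts deposited with them. Each deposited peak carries the authors' fold, a ratio whose reference is not stated, and the authors' −log10 q value. Of 16957 replicated peaks, 16890 have the position and fold of a pooled peak. Aligner and peak caller: not given in the sources used here. No read counts were used, so depth is unknown, and a fold was compared only within a list.

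Coordinates are mm10 (GRCm38), with starts from GENCODE M21. Domains were joined, classed and matched to 54361 coding starts with Python 3.11.15, pandas 2.3.3 and numpy 2.4.6. A gene touching several domains took the class of the one with the highest fold. Routines were tested on simulated data. With 1 group of 2 replicates no test between conditions exists, and domains were described with 95% Wilson intervals. The members and gene lists were chosen with earlier results of these data known. Named are the 10 highest folds, the 5 narrowest, the members just inside and outside each limit, the extremes of CpG ratio and gap, and the list members of highest fold. Members of lists named for their role were chosen after their values were seen. Alternatives changed the joining, windows, starts, list, limits and measures. Values of 1 marker list and of some genes are not reported here.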

Additional observations from a re-analysis of the deposited data

How the results depend on the processing

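Results with all coding promoter domains as the base are 1187 members, a CpG ratio lower by 0.077 in members than in the other domains (their medians' difference is -0.077), and a shared-start share of 9.18%. The ratio was lower in members under every alternative run, from -0.128 to -0.021. The share was below that of wide strong domains in the same setting under every one, whereas its order against all other domains was not stable: it was higher in members without joining (16.95% against 10.5%), with a width limit of 2500 bp (16.2% against 9.96%) and, by a small margin, in replicate 2's list at matched ranks (11.6% against 11.5%).

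Without joining there were 1970 members and a difference of -0.042. A fold limit of 25 gave 1924 and one of 40 gave 214 (-0.098). A width limit of 1500 bp gave 384 (-0.101, 5.21%) and one of 2500 bp 1960 (-0.046). Keeping the upper part of −log10 q gave -0.065. Over 250 bp on either side the difference was -0.021 and over the domain itself -0.031. Another coding start was found at 6.23% within 300 bp and 11.1% within 2500 bp, and a start of any gene within 1 kb at 21.2%. With each replicate's own list the count ran from 3 (replicate 2's list) to 2335 (replicate 1's list), the CpG difference from -0.128 to -0.082 and the share from 0% to 6.98%. Each list has its own fold scale, the -0.128 and the 0% rest on 3 domains, and the cause of these moves was not tested.

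Chosen after seeing the data, a fold limit passed by the same 31.8% of domains in each list gave 1625 members without replicate 1 (-0.067, 11.6%) and 1077 without replicate 2 (-0.081, 8.36%), of which 1064 and 968 lead genes were shared with the 1185 of the main set. Members narrow in both replicates gave -0.088, and those with the lead start inside gave -0.085. Against the share of all genes, 34 of 34 lists kept their side in the pooled list, 31 without replicate 1 and 33 without replicate 2 at matched ranks. No paired analysis was possible because there is 1 group.

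Both limits cut a continuous spread, so the number of members is set by them. The fold is tied at many values and its reference is unknown. The width of 192 members lay above 2000 bp in replicate 1 and below it in replicate 2. Neither expression nor depth was measured, and the part of either in these values was not tested.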
